A study of Mus musculus with 23 samples.

Results

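Loss of the pregnane X receptor was read in 12 liver arrays of 23 in all: 6 from Pxr-/- CONT mice and 6 from WT CONT mice, neither of which had received a PXR ligand. The WT mice were C57BL/6J males bought at 6 weeks of age, and the Pxr-/- mice were males carrying a germline deletion of Pxr (gene symbol Nr1i2), backcrossed on C57BL/6J and bred in the facility for 10 years. Both CONT groups received corn oil, the vehicle, by daily intraperitoneal injection for 4 days. The remaining arrays came from WT PCN mice (5) and Pxr-/- PCN mice (6), given pregnenolone 16alpha-carbonitrile at 100 mg/kg in the same vehicle. All mice ate freely and were killed 6 h after the last injection, at zeitgeber time 6, which the labels call the fed state and the study describes as partly fasted. Each array held the liver RNA of 1 mouse. The age of the Pxr-/- mice at death is not given in the sources used here, and genotype cannot be told apart from colony. Every non-control probe entered the comparison, so the members are 56605 probes, of which 32087 probes of 21056 genes were bright enough to be tested. On chromosomes other than 16, which carries the deleted locus, 48 genes were higher and 10 lower in Pxr-/- CONT livers. Chromosome 16 added 4 higher and 8 lower genes, and 1 further higher gene had no position.

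PXR is a nuclear receptor of hepatocytes and gut epithelium. It binds DNA together with RXR once a steroid, bile acid or drug occupies its ligand pocket, and it is best known for switching on the Cyp3a, Cyp2b and Cyp2c monooxygenases, the enzymes that conjugate their products, and the transporters that move them. Without ligand it can also sit on target genes together with corepressors, and in liver it has been linked to lipid storage and to glucose output.

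The arrays were alike in quality. Between 29510 and 33321 probes per array were well above background, with Pxr-/- CONT replicates 3 and 6 at the low end (29510 and 29971). Any pair of arrays correlated at r = 0.986 to 0.996 over tested probes. Mean brightness before scaling differed between Pxr-/- CONT and WT CONT by -0.10 on the log2 scale (two-sided exact permutation test over 924 splits of the 12 arrays, p = 0.201). The probe for Nr1i2 (chr16:38248745-38248804, build mm9) ranged in WT CONT mice from 10.63 to 12.15 around a median of 11.60 log2 units, and in Pxr-/- CONT mice from 10.16 to 12.08 around 11.79. The groups overlapped entirely and the difference was -0.03 ± 0.28 (SE, adjusted p = 0.977). The sources used here do not say which exons were removed, so this probe checks no label. The sign of that value turned in several alternatives.

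A gene was called when a probe passed a limma adjusted p of 0.05 and a fold change of 1.5. In all, 71 of 21056 genes were called in vehicle-treated liver (0.337%), 53 higher (0.252%) and 18 lower (0.0855%) in Pxr-/- CONT mice. Outside chromosome 16 this was 58 of 20247 genes (0.286%). Values below are normalised log2 signals with 6 mice per group unless stated, differences are Pxr-/- CONT minus WT CONT on the log2 scale with their standard errors, and bulk liver cannot tell fewer cells of a type from less RNA per cell. The directions were unequal, 74.6% of the calls being higher, but in the authors' own normalised values only 42.9% were (30 higher and 40 lower). The median difference of all tested features was -0.106 in those values and -0.01 here. With those values 48 of the 71 genes were called again by any probe. Lost calls of single genes, here and below, refer to the probe a gene was read from, and another of its probes may have stayed called. Genes named below whose probe was not called there were Cyp3a25, Cyp3a59, Ces2a, Gstm2, Gstm6, Smpd3, Prss8, Upp2, Dpy19l3, Lhpp, Pde4b, Aldh1l1, Synj2 and Car1. A fit of the 12 vehicle arrays alone called 43 of the 71. Those named below whose probe it did not call were Slco1a4, Enho, Slc22a5, Unc13b, Fam25c, Kyat3, Igfbp2, Cyp2a5, Cyp3a59, Ces2a, Gstm2, Gstm6, Smpd3, Upp2, Dpy19l3, Pde4b, Aldh1l1, Synj2, Gm28548, A130072N09Rik and Car1. Within washing batches (3 against 3 mice each), the fit of batch 1 called 11 genes higher and 1 lower, and that of batch 2 called 45 higher and 19 lower. All 71 genes kept their sign in both, but they were called on these same arrays together, which favours this outcome. Without Pxr-/- CONT replicates 3 and 6, the arrays with the fewest probes above background (an alternative chosen after seeing the data), 37 genes were called higher and 7 lower, 43 of them among the 71. The number lower on other chromosomes was also 6 in place of 10 without Pxr-/- CONT replicate 3 or without replicate 6.

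Many of the genes that rose were cytochromes P450, the monooxygenases that oxidise steroids and drugs. Of 45 tested genes of the phase I P450 list, 9 rose and 0 fell, 35 were above 0, and the median difference was 0.17 against -0.005 over all tested genes. Between Pxr-/- PCN and WT PCN mice the list median was 0.13. Cyp2c55, a PXR target that hydroxylates arachidonic acid (chr19:39116674-39116733), had a signal of 6.64, 6.81 and 8.10 as lowest, median and highest in WT CONT mice. In Pxr-/- CONT mice these were 9.60, 9.79 and 10.62. Every Pxr-/- CONT mouse was above every WT CONT mouse, and the difference was 2.80 ± 0.22 (6.99-fold, adjusted p = 1.53e-07), with 2 of 2 probes called at 2.43 and 2.80. Cyp2g1, a P450 known from olfactory mucosa (chr7:27606111-27606170), ran from 7.30 to 8.02 around 7.54 in WT CONT mice and from 8.69 to 10.90 around 10.33 in Pxr-/- CONT mice. The groups were apart and differed by 2.38 ± 0.29 (5.21-fold, adjusted p = 0.000101), although Pxr-/- CONT replicates 5 and 6, at 9.10 and 8.69, lay well below the others.

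Further Cyp2c loci of chromosome 19 rose as well. Cyp2c38 ran from 13.97 to 14.54 around 14.15 in WT CONT mice and from 15.08 to 16.05 around 15.81 in Pxr-/- CONT mice, a difference of 1.48 ± 0.16 with no overlap (2.78-fold, adjusted p = 2.07e-05). Cyp2c29 rose by 0.68 ± 0.12 (adjusted p = 0.00652), and the pseudogene Cyp2c53-ps by 1.58 ± 0.29 (adjusted p = 0.00977), from 5.43 to 6.03 around 5.58 in WT CONT mice, where 1 array was not well above background, to between 6.30 and 7.74 around 7.49. Other members of the same family did not pass: Cyp2c37, Cyp2c50 and Cyp2c54 differed by 0.02, 0.01 and 0.00, and Cyp2c70 by -0.16. Of the Cyp2a genes, which encode coumarin and testosterone hydroxylases on chromosome 7, Cyp2a4 rose by 1.45 ± 0.24 (adjusted p = 0.00456) and Cyp2a5 by 0.76 ± 0.16 (adjusted p = 0.0365). Cyp2a4 ran from 14.94 to 16.27 in WT CONT mice and from 16.60 to 17.59 in Pxr-/- CONT mice, so its groups were apart. Cyp2a5 had a value in only 5 Pxr-/- CONT mice. Its call was lost when WT CONT replicate 1, 3, 4 or 6 or Pxr-/- CONT replicate 1, 3, 4 or 5 was left out (adjusted p up to 0.103). Members of these families are close copies, and how far a probe also binds its paralogs was not tested.

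Cyp3a genes, the classical PXR targets of chromosome 5, were slightly higher without the receptor. Cyp3a57 rose by 0.73 ± 0.10 (adjusted p = 0.000706), Cyp3a59 by 0.68 ± 0.13 (adjusted p = 0.0104) and Cyp3a25 by 0.66 ± 0.10 (adjusted p = 0.00157), each about 1.6-fold (1.66, 1.60 and 1.58). Cyp3a57 ran from 12.99 to 13.49 around 13.31 in WT CONT mice and from 13.75 to 14.24 around 14.07 in Pxr-/- CONT mice. For Cyp3a25 the ranges were 13.96 to 14.56 and 14.72 to 15.17. Neither gene's groups overlapped, whereas those of Cyp3a59 did (13.03 to 13.59 and 13.48 to 14.38). In the authors' deposited values Cyp3a25 (0.57) fell below the fold limit and Cyp3a59 (0.57, adjusted p = 0.0839) lost its call, as did Cyp3a59 with the vehicle arrays alone (adjusted p = 0.110). Cyp3a11, the most studied member, differed by 0.69 ± 0.22 and was not called (adjusted p = 0.199). Its WT CONT values ran from 12.83 to 14.02 around 13.66 and its Pxr-/- CONT values from 13.33 to 14.78 around 14.45. Without Pxr-/- CONT replicate 2 it was called at 0.89 (adjusted p = 0.0322). Cyp3a16 and Cyp3a41a differed by 0.65 and 0.40 and were not called, and Cyp3a13 by -0.13. Cyp2b10, the marker gene of the sister receptor CAR, differed by 0.32 ± 0.66 (adjusted p = 0.895) with groups that overlapped almost fully (6.74 to 10.99 and 6.56 to 10.49).

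The start regions of the Cyp3a genes that rose together are shown because they are close copies of each other and share the AGGTCA hexamer that nuclear receptors of this class read, and those of Cyp2c55 and Ces2a because these genes were also strongly raised by PCN in WT mice. Each line gives 300 bases around the RefSeq gene start, most of them upstream, in build GRCm38.p6, 5′ to 3′ on the gene's strand, with AGGTCA on either strand (AGGTCA or TGACCT) in capitals. They lie at chr5:145345019-145345318 (Cyp3a57, plus strand), chr5:146009568-146009867 (Cyp3a25, minus strand), chr5:146079008-146079307 (Cyp3a59, plus strand), chr8:104733753-104734052 (Ces2a, plus strand) and chr19:39006769-39007068 (Cyp2c55, plus strand).
Cyp3a57: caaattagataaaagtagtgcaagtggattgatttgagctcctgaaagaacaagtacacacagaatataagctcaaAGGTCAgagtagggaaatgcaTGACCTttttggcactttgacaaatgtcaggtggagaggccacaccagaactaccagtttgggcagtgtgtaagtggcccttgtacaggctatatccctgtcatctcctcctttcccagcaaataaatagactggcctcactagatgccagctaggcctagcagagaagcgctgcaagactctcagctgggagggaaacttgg
Cyp3a25: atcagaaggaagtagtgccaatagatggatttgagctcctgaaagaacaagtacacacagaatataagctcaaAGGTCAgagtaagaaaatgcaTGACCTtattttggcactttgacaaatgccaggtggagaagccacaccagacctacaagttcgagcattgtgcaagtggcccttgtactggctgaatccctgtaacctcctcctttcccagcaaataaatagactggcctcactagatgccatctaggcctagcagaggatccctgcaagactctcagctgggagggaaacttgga
Cyp3a59: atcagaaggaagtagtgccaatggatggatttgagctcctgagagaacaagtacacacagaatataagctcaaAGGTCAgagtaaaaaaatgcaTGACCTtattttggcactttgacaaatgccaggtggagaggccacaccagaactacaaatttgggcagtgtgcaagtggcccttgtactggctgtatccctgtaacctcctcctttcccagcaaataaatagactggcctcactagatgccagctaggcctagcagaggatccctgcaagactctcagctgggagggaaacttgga
Ces2a: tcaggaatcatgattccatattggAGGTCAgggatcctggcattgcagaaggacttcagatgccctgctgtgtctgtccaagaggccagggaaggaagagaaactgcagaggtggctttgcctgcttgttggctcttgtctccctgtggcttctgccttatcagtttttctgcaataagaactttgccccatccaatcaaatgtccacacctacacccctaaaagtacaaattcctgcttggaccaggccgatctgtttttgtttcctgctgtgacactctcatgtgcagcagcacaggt
Cyp2c55: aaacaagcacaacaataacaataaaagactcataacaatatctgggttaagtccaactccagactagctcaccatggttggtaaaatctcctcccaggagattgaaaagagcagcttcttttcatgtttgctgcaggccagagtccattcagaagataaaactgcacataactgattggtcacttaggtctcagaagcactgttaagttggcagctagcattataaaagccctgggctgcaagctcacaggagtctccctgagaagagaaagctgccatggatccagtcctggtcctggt

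Aligned in pairs, the Cyp3a25 and Cyp3a59 regions were identical at 289 of 300 columns (96.3%), Cyp3a57 and Cyp3a59 at 275 of 303 (90.8%) and Cyp3a25 and Cyp3a57 at 270 of 303 (89.1%). Each of the 3 held the hexamer 2 times, once on either strand, Ces2a held it 1 time, and the Cyp2c55 window did not hold these letters. Of the 45 called higher genes of other chromosomes with a RefSeq name, 37 had a start region in the table, and 12 of these (32.4%) held AGGTCA on either strand against 4900 of 27025 genes (18.1%). They were Acacb, Aldh1l1, Ces2a, Cyp2a4, Cyp2a5, Cyp2c29, Cyp3a25, Cyp3a57, Cyp3a59, Papss2, Pde4b and Upp2. The related hexamer AGTTCA was held by 8 of 37 (21.6%) against 15.7% of all genes. Direct repeats of AGNTCA spaced by 4 bases, the arrangement the study names for PXR, or by 3 bases were in 0 of the 37 windows and in 0.144% and 0.0814% of all. Other arrangements of repeats were not searched for. TCACNCCAC, a form of the sterol regulatory element, was in 4 of 37 (10.8%) against 1.44%, namely Cyp2a4, Cyp2a5, Gstm6 and Pla2g12a, and the E-box CACGTG in 7 (18.9%) against 8.09%. Near copies such as the Cyp3a windows count separately here, and a match of letters is no evidence of binding. The 27025 genes were all those with a start region, not only those tested in liver.

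Among conjugating enzymes, 3 of 37 tested genes rose and 0 fell, with a median of 0.14 and 28 genes above 0. Between Pxr-/- PCN and WT PCN mice the list median was -0.07. Papss2, which makes the sulfate donor of sulfotransferases, rose by 0.98 ± 0.14 (adjusted p = 0.000779), from between 13.36 and 14.39 around 13.60 to between 14.46 and 15.10 around 14.75. Both of its probes were called, but the call was lost when they were averaged, for reasons not examined. The glutathione S-transferases Gstm6 and Gstm2 rose by 0.71 ± 0.13 (adjusted p = 0.0134) and 0.91 ± 0.19 (adjusted p = 0.0257). None of these 3 overlapped between groups, which was so for 46 of the 71 called genes and for 0.836% of all tested genes. Gstm2 lost its call without WT CONT replicate 5 or 6 or Pxr-/- CONT replicate 2, 3 or 5 (adjusted p up to 0.0893). Of 31 tested carboxylesterases and reductases, 1 rose and 0 fell: Ces2a, an intestinal and hepatic carboxylesterase, at 0.69 ± 0.13 (adjusted p = 0.0128), with overlapping groups of 12.44 to 12.88 and 12.62 to 13.62. Akr1b7, an aldose reductase and PXR target, differed by 1.41 ± 0.33 without being called (adjusted p = 0.0605). Alas1, the rate-limiting enzyme of heme synthesis, rose by 1.12 ± 0.21 (adjusted p = 0.0121), 1 of its 3 probes being called and the others lying at 0.69 or above.

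The opposite direction was seen in a transporter. Slco1a4, the organic anion uptake carrier Oatp1a4 of the basolateral membrane (chr6:141754675-141754734), fell by 1.83 ± 0.31 on the log2 scale (3.55-fold, adjusted p = 0.0046). Its signal ran from 8.29 to 10.54 around 8.83 in WT CONT mice and from 6.59 to 8.14 around 7.11 in Pxr-/- CONT mice. All Pxr-/- CONT mice were below all WT CONT mice, and the highest WT CONT value stood well above the next, at 9.004. It was the only one of 22 tested hepatic transporters to be called. The median of that list was 0.01, and Abcc2 and Abcb1a differed by 0.26 and 0.02 without passing.

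**Figure D1:**
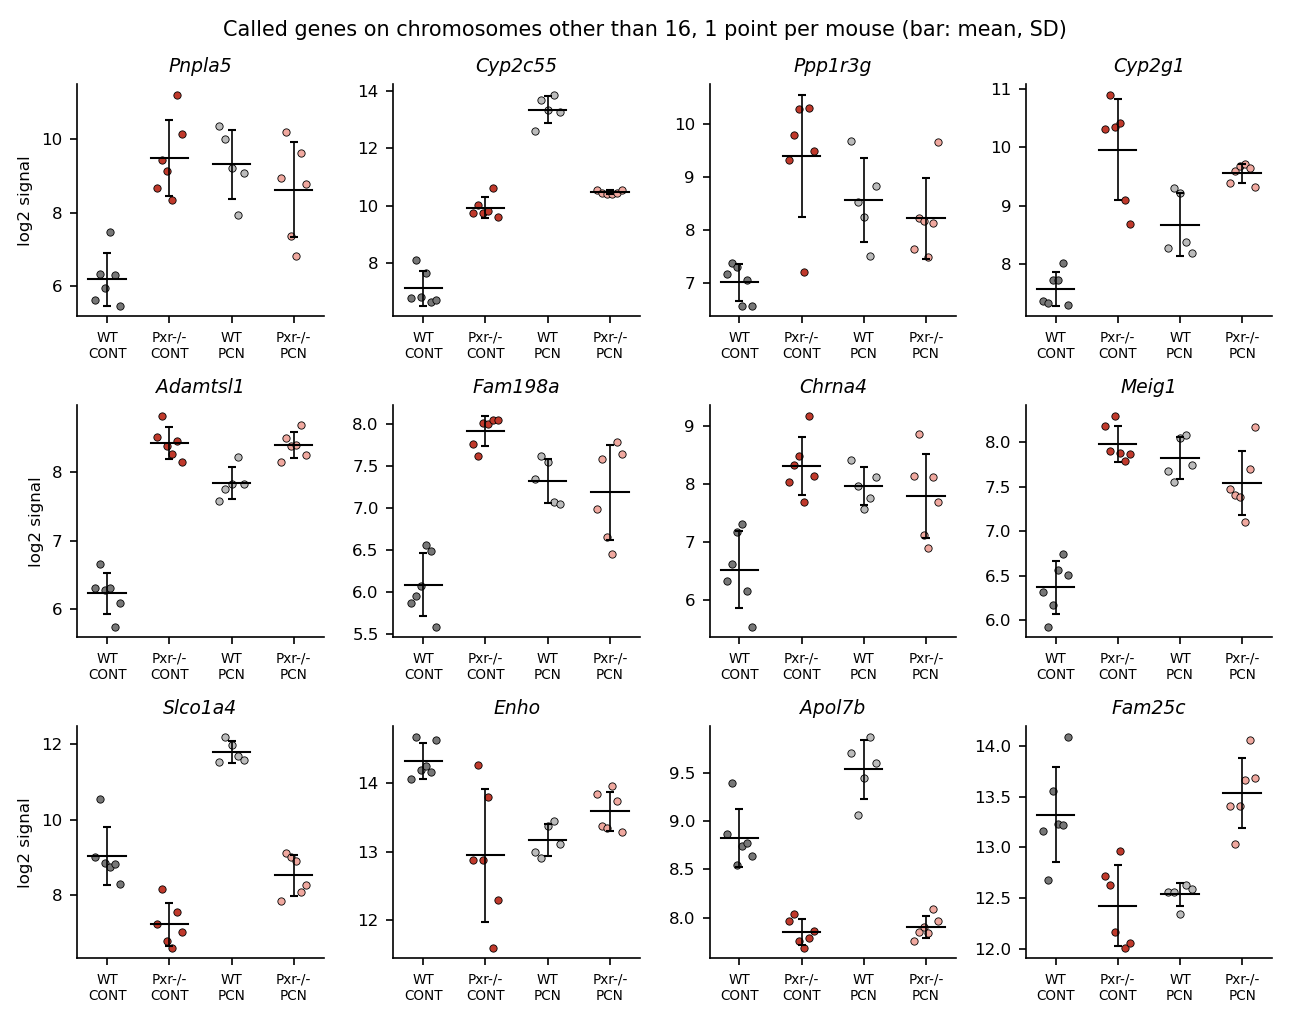
Normalised log2 signal of the 8 largest rises (upper rows) and 4 largest falls (bottom row) on chromosomes other than 16, in WT CONT, Pxr-/- CONT, WT PCN and Pxr-/- PCN mice, 1 point per mouse with the group mean and SD. In the CONT groups the points of Cyp2c55, Adamtsl1 and Meig1 are well apart, with differences of 2.80, 2.20 and 1.61, whereas those of Enho and Ppp1r3g overlap.

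Lipid synthesis genes lay higher as a list, with few calls. Of 34 tested genes of fatty acid and triglyceride synthesis, 3 rose and 0 fell, 31 were above 0 and the median was 0.41, where 48.6% of all tested genes were above 0. Between Pxr-/- PCN and WT PCN mice the list median was -0.09. Pnpla5, a patatin-like lipase of lipid droplets (chr15:83942786-83942844), had the largest difference of all genes. Its signal ran from 5.45 to 7.48 around 6.10 in WT CONT mice and from 8.33 to 11.21 around 9.30 in Pxr-/- CONT mice. The groups did not overlap, although both were wide, and differed by 3.32 ± 0.53 (9.97-fold, adjusted p = 0.00282), with 2 of 2 probes called at 1.64 and 3.32. Its neighbour Pnpla3, a triglyceride lipase and lipogenic target whose human variant marks fatty liver, ran from 5.36 to 5.71 around 5.45 and from 6.13 to 8.22 around 6.85. These groups were apart as well and differed by 1.47 ± 0.25 (2.78-fold, adjusted p = 0.00566), with 1 of 2 probes called and the other at 1.62. Acacb, the acetyl-CoA carboxylase of the mitochondrial surface, rose by 1.22 ± 0.25 (adjusted p = 0.0208), from between 11.62 and 12.71 to between 12.75 and 13.82. Only 1 of its 3 probes was called, the lowest lying at 0.05, and the call was lost without WT CONT replicate 2, 5 or 6 or Pxr-/- CONT replicate 5 or 6 (adjusted p up to 0.0714).

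The core lipogenic enzymes were not called. Thrsp, the Spot14 protein that promotes lipogenesis, differed by 1.59 ± 0.42 (adjusted p = 0.108), with values from 13.51 to 15.86 around 14.58 in WT CONT mice and from 15.46 to 16.97 around 16.19 in Pxr-/- CONT mice. Elovl6, a fatty acid elongase, differed by 1.08 ± 0.34 (adjusted p = 0.206), and its groups did not overlap. Fasn (fatty acid synthase) differed by 0.93, Scd1 (stearoyl-CoA desaturase) by 0.91, Acly (ATP citrate lyase) by 0.68 and Acaca (acetyl-CoA carboxylase of the cytosol) by 0.52, with adjusted p from 0.252 to 0.405. The regulators Srebf1 and Mlxipl differed by 0.36 and 0.00. The median of the list was 0.21 in washing batch 1 and 0.72 in batch 2, so that its size differed between batches.

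Cholesterol synthesis genes lay on the same side by a smaller amount. Of 24 tested genes 0 passed, 23 were above 0 and the median was 0.22, but within washing batch 1 that median was 0.01 and within batch 2 it was 0.39. Between Pxr-/- PCN and WT PCN mice it was 0.14. Sqle, which oxidises squalene, differed by 0.29 ± 0.16 (adjusted p = 0.492). Genes of PPARa, the receptor that switches on fatty acid oxidation, lay on the other side: of 46 tested, 1 fell and 0 rose, 7 were above 0 and the median was -0.19. Between the PCN groups the median of this list was 0.02. The gene that fell in CONT mice was Slc22a5, the carnitine carrier, by 0.65 ± 0.12 on the log2 scale (adjusted p = 0.00924). Only 1 of 2 probes of Slc22a5 was called, the other lying at -0.38, and its call was lost when they were averaged. The called probe ran from 10.14 to 10.76 in WT CONT mice and from 9.64 to 10.09 in Pxr-/- CONT mice, with no overlap. Fgf21, the fasting hormone of the liver, differed by -1.34 ± 0.41 (adjusted p = 0.196). Its WT CONT values ran from 7.23 to 10.24 around 7.77 and its Pxr-/- CONT values from 5.77 to 7.45 around 6.97. The fatty acid hydroxylases Cyp4a10, Cyp4a31 and Cyp4a14 differed by -0.997, -1.04 and -0.93 (adjusted p from 0.240 to 0.306). Ppara itself differed by -0.11 ± 0.09 and Cpt1a, which admits fatty acids to mitochondria, by -0.16 ± 0.10, and neither passed.

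**Figure D2:**
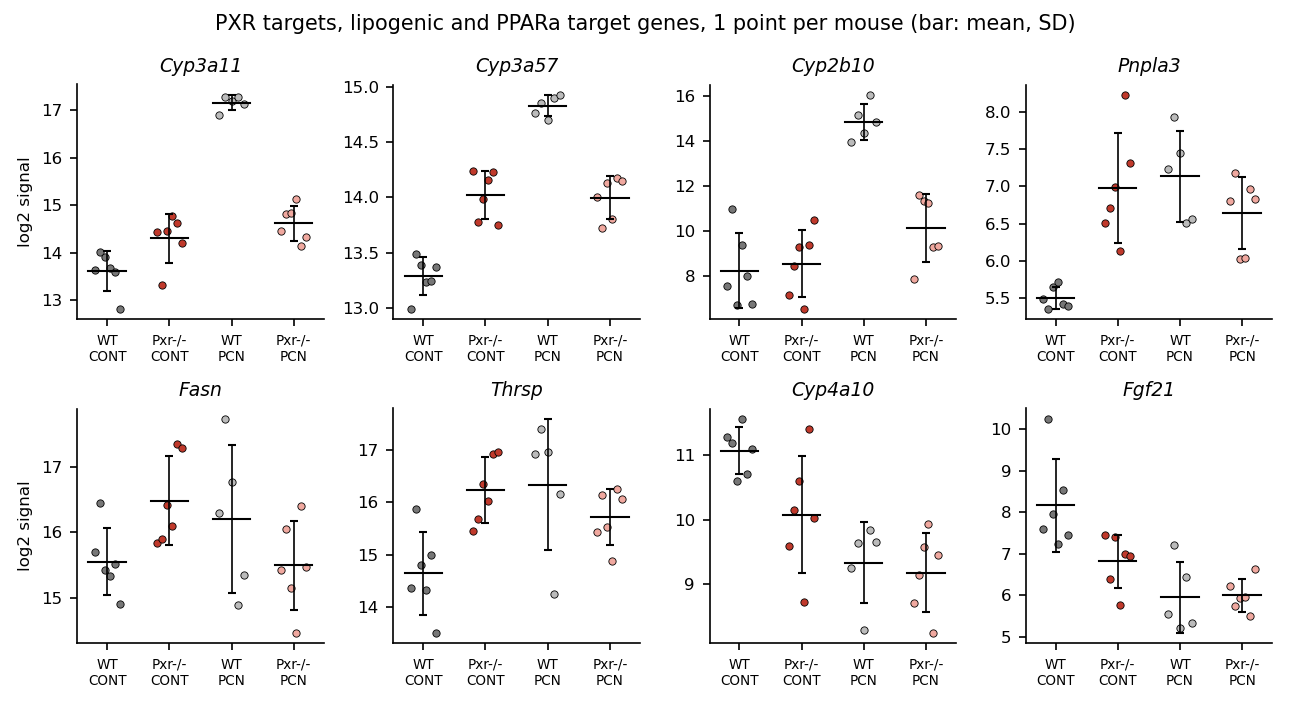
Normalised log2 signal of PXR targets (Cyp3a11, Cyp3a57, Cyp2b10), lipogenic genes (Pnpla3, Fasn, Thrsp) and PPARa target genes (Cyp4a10, Fgf21) in each mouse of the 4 groups, with the group mean and SD. Between the CONT groups only Cyp3a57 and Pnpla3 were called, at 0.73 and 1.47, and the points of the other 6 genes overlap.

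Of the glucose and glycogen list, 1 of 29 tested genes rose and 0 fell. This was Ppp1r3g, which brings protein phosphatase 1 to glycogen (chr13:36061999-36062058), at 2.38 ± 0.43 (5.22-fold, adjusted p = 0.00924). WT CONT mice ran from 6.58 to 7.39 around 7.12, and Pxr-/- CONT mice from 7.21 to 10.30 around 9.64. In Pxr-/- CONT mice 5 values lay at 9.32 or above and 1 lay within the WT CONT range. G6pc, glucose 6-phosphatase, differed by 0.62 ± 0.49 (adjusted p = 0.667). Of 31 tested stress and secreted factors, 1 rose and 1 fell. Igfbp2, a binding protein of insulin-like growth factors, rose by 0.93 ± 0.18 (adjusted p = 0.014). Enho, which encodes adropin, fell by 1.38 ± 0.28 on the log2 scale (2.60-fold, adjusted p = 0.0246), with both probes called. Its signal ran from 14.06 to 14.68 around 14.23 in WT CONT mice and from 11.59 to 14.27 around 12.87 in Pxr-/- CONT mice, so that the spread was much wider without the receptor. The difference was -0.49 in washing batch 1 and -2.27 in batch 2, and the call was lost without WT CONT replicate 2 or 6 or Pxr-/- CONT replicate 1, 3, 5 or 6 (adjusted p up to 0.0822).

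Several leading rises belong to no list used here. Adamtsl1, a secreted protein of the extracellular matrix (chr4:85845314-85845373), had the smallest adjusted p of all genes. It ran from 5.75 to 6.66 around 6.29 in WT CONT mice and from 8.15 to 8.82 around 8.42 in Pxr-/- CONT mice, a difference of 2.20 ± 0.14 (4.58-fold, adjusted p = 4.07e-09), with 2 of 2 probes called. Fam198a, now named Gask1a and encoding a Golgi protein, ran from 5.59 to 6.56 and from 7.62 to 8.05 and differed by 1.82 ± 0.20 (adjusted p = 3.55e-05). Meig1, known from sperm formation, ran from 5.93 to 6.75 and from 7.79 to 8.29 and differed by 1.61 ± 0.16 (adjusted p = 4.76e-06). Chrna4, a subunit of the nicotinic acetylcholine receptor, ran from 5.54 to 7.31 and from 7.69 to 9.18 and differed by 1.78 ± 0.32 (adjusted p = 0.00798). Tmeff2, a transmembrane protein, ran from 4.87 to 5.93 in WT CONT mice, where 4 of 6 arrays were well above background, and from 6.44 to 7.66 in Pxr-/- CONT mice. It differed by 1.54 ± 0.23 (adjusted p = 0.00106). None of these genes overlapped between the groups, which was so for 46 of the 71 called genes and for 0.836% of all tested genes.

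Smaller rises took in Pla2g12a, a secreted phospholipase A2, by 1.22 ± 0.15 (adjusted p = 9.25e-05), Smpd3, a neutral sphingomyelinase, by 1.05, Prss8, the membrane protease prostasin, by 0.98, and Upp2, a uridine phosphorylase of liver, by 0.91 with 4 of 4 probes called. Synj2, a phosphoinositide phosphatase, was called by 6 of its 7 probes, which lay between 0.28 and 1.21. Smpd3 lost its call without WT CONT replicate 5 or Pxr-/- CONT replicate 1, 3, 4, 5 or 6 (adjusted p up to 0.0764) and Upp2 without WT CONT replicate 1 or 6 or Pxr-/- CONT replicate 4 or 5 (up to 0.0663, limma). Synj2 lost it without WT CONT replicate 1, 4, 5 or 6 or Pxr-/- CONT replicate 2, 3, 4 or 6 (adjusted p up to 0.0822). For Upp2 and Synj2 these losses are those of the probe read, and whether their other probes stayed called was not examined. Lhpp, a histidine phosphatase, rose by 0.63 ± 0.10 (adjusted p = 0.00157) with no overlap. Gm28548 was well above background in no WT CONT mouse and on 5 of 6 Pxr-/- CONT arrays. Its mean over all arrays was at least 1.66-fold higher, the bound being set by the dimmest probes above background. The difference was 0.40 in washing batch 1 and 1.45 in batch 2. Its call was lost without WT CONT replicate 1, 2, 4 or 6 or Pxr-/- CONT replicate 3, 5 or 6 (adjusted p up to 0.101). Of the 58 called genes of other chromosomes, 27 had more than 1 tested probe, and in 8 of these all probes were called.

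On other chromosomes, all called falls except Slco1a4 and Enho were smaller than 1.0 on the log2 scale. Apol7b, of the apolipoprotein L family, ran from 8.55 to 9.40 around 8.76 in WT CONT mice and from 7.69 to 8.04 around 7.83 in Pxr-/- CONT mice, with no overlap, and fell by 0.97 ± 0.13 (adjusted p = 0.000236). Qpct, glutaminyl cyclase, ran from 9.11 to 9.36 and from 8.18 to 8.68 and fell by 0.73 ± 0.11 (adjusted p = 0.00212). S1pr5, a sphingosine 1-phosphate receptor, fell by 0.74 ± 0.14 (adjusted p = 0.012), and Unc13b, a vesicle priming protein, by 0.86 ± 0.16 (adjusted p = 0.0133). Prox1, a transcription factor of hepatocytes and lymphatic vessels, fell by 0.75 ± 0.16 (adjusted p = 0.037) and Fam25c by 0.90 ± 0.19 (adjusted p = 0.0262). These last 2 calls were not steady. Prox1 was lost without WT CONT replicate 2, 3, 5 or 6 or Pxr-/- CONT replicate 1, 3, 4, 5 or 6 (adjusted p up to 0.120), and Fam25c without WT CONT replicate 3 or Pxr-/- CONT replicate 3, 5 or 6 (adjusted p up to 0.0910).

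**Figure D3:**
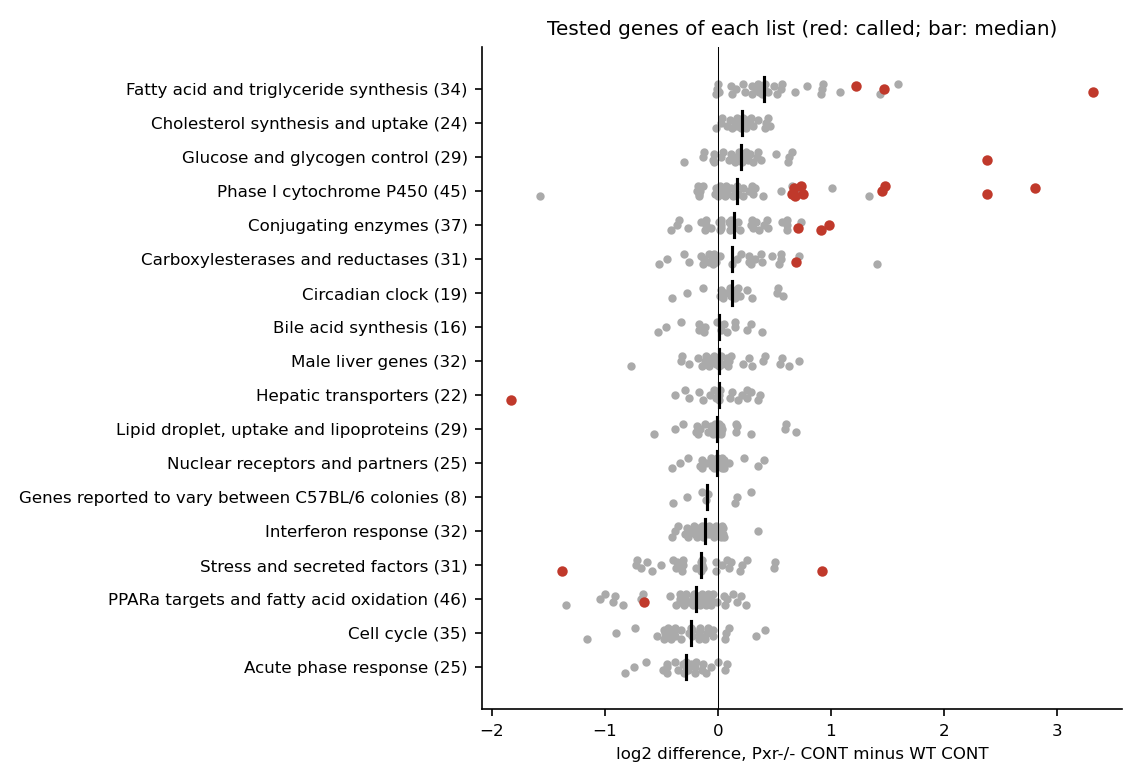
Log2 difference, Pxr-/- CONT minus WT CONT, of every tested gene (points) in 18 gene lists, with the number tested in brackets, called genes in red and the list median as a bar. The median runs from 0.41 for fatty acid and triglyceride synthesis to -0.28 for the acute phase response, and cytochromes P450 hold more called genes (9) than any other list.

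In the remaining lists no gene was called. Of 25 tested nuclear receptors and partners 12 were above 0, and Nr1i3, which encodes CAR, differed by -0.41 ± 0.19 (adjusted p = 0.438). Bile acid synthesis had a median of 0.01 over 16 genes, with Cyp7a1, its rate-limiting enzyme, at -0.53 ± 0.33 (adjusted p = 0.570) and Cyp8b1 at 0.39 ± 0.44 (adjusted p = 0.778). The acute phase response had a median of -0.28 with 3 of 25 genes above 0, cell cycle -0.24 with 5 of 35, interferon response -0.11 with 8 of 32, and the circadian clock 0.12 with 16 of 19. The interferon median was 0.15 in washing batch 1 and -0.33 in batch 2, and that of the clock was -0.05 and 0.31, so neither kept its sign. Between Pxr-/- PCN and WT PCN mice the medians were 0.11 for the acute phase response, -0.57 for cell cycle, 0.19 for interferon response and 0.42 for the clock. Lipid droplet, uptake and lipoprotein genes had a median of -0.01 over 29 genes, and male liver genes 0.01 over 32. Genes reported to vary between C57BL/6 colonies also gave no call among 8 tested, with Nnt at 0.29 ± 0.22 (adjusted p = 0.650) and Ide at -0.40 ± 0.12 (adjusted p = 0.197).

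Markers of the liver and of other cell types gave no call in any of 11 lists. The 10 hepatocyte markers had a median difference of 0.06, and their summed signal ran from 20.42 to 20.78 log2 units in WT CONT mice and from 20.50 to 20.70 in Pxr-/- CONT mice. Kupffer cell markers were below 0 for 12 of 12 genes with a median of -0.12, and their summed signal overlapped (15.33 to 16.30 and 15.16 to 16.20). The 7 tested cholangiocyte markers were all below 0 with a median of -0.40 and overlapping sums (10.80 to 12.33 and 11.08 to 11.86), while Cftr and Cldn4 were not bright enough to be tested. Endothelial markers had a median of -0.11, stellate cell markers -0.04, lymphocyte markers -0.02, neutrophil markers 0.08, red blood cell markers 0.09 and adipose markers 0.18. Of pancreas and intestine markers 7 of 11 and 5 of 8 were not bright enough to be tested. The part of these shifts in the gene results above was not tested.

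The PCN-treated mice of both genotypes shared no array with the CONT mice, so the same genes could be read in other animals of both colonies. There, 501 of 21056 genes were called (2.38%), 177 higher and 324 lower in Pxr-/- PCN mice than in WT PCN mice. Of the 58 genes of other chromosomes, 31 had the same sign as in CONT mice and 6 were called in the same direction, where 58.4% of all tested genes had the same sign. The 6 were Tmeff2 (1.54 in CONT and 1.35 in PCN mice), Dpy19l3 (0.76 and 0.84), Upp2 (0.91 and 0.65), Apol7b (-0.97 and -1.63), Slco1a4 (-1.83 and -3.30) and Kyat3, listed as Ccbl2 (-0.70 and -0.68), chosen after their values were seen. Dpy19l3 lost its CONT call without WT CONT replicate 6 or Pxr-/- CONT replicate 4 or 5 (adjusted p up to 0.0605) and Kyat3 without WT CONT replicate 1, 2, 5 or 6 or Pxr-/- CONT replicate 2, 3, 4 or 6 (up to 0.0952, limma). In CONT mice only 1 of 4 probes of Dpy19l3 was called, the lowest lying at 0.07. For Kyat3 it was 1 of 2, the other lying at 0.02. Both calls were lost when a gene's probes were averaged. The 6 genes make up 10.3% of the 58 genes and 1.20% of the 501. A further gene, Lhpp, differed by 0.63 and 0.58 and stayed under the fold limit in PCN mice.

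For 26 of the 58 genes the genotype difference itself changed with PCN, by the interaction term of the same fit (247 of 21056 genes, 1.17%), a term that reuses the CONT arrays by which the 58 were chosen. Cyp2c55 moved from 2.80 in CONT mice to -2.91 in PCN mice (interaction adjusted p = 1.89e-10). Here the Pxr-/- level barely moved, with means of 9.93 without and 10.47 with PCN, whereas WT mice went from 7.12 to 13.35. Ces2a moved from 0.69 to -1.998 (adjusted p = 1.53e-08), Cyp3a59 from 0.68 to -1.67 (adjusted p = 7.19e-08), Cyp3a57 from 0.73 to -0.83 (adjusted p = 1.21e-06) and Cyp3a25 from 0.66 to -0.73 (adjusted p = 3.98e-06). For Pnpla5, Pnpla3, Ppp1r3g, Chrna4, Meig1 and Fam198a, the difference was between -0.75 and -0.15 in PCN mice and was not called there. Set beside the PCN effect in WT mice, which shares the WT CONT arrays and therefore is no independent measure, the genotype difference was 3.32 and the PCN effect 3.20 for Pnpla5, 1.47 and 1.68 for Pnpla3, 1.48 and 1.89 for Cyp2c38, and 2.20 and 1.61 for Adamtsl1. For Tmeff2 the PCN effect in WT mice was -0.36, for Dpy19l3 -0.18, for Slco1a4 2.78 and for Apol7b 0.70.

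**Figure D4:**
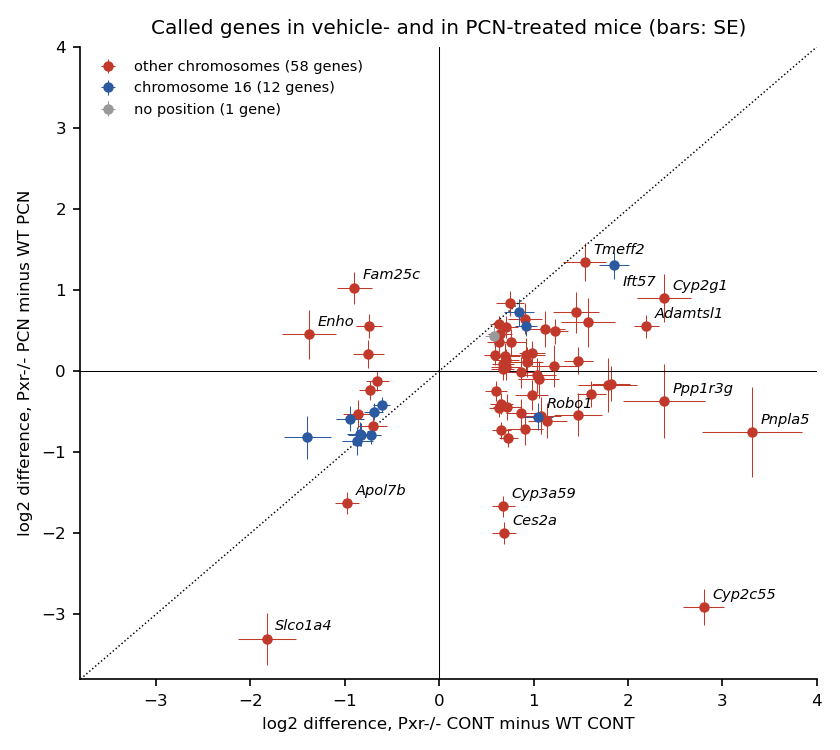
Log2 genotype difference of the 71 called genes in CONT mice (horizontal axis) and in PCN mice (vertical axis) with standard errors; red, other chromosomes; blue, chromosome 16; grey, no position; dotted, equal differences. Blue points lie near the dotted line except Robo1, while many red points at 0.6 to 3.3 on the horizontal axis lie near or below 0 on the vertical axis, with Cyp2c55 at -2.91.

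Chromosome 16 held 12 called genes of 675 tested (1.78%), the highest share of any chromosome, followed by chromosome 19 with 0.7%. Of the 12, 4 were higher and 8 lower. Ift57, a component of ciliary transport, led: it ran from 6.24 to 7.05 around 6.54 in WT CONT mice and from 8.25 to 8.98 around 8.35 in Pxr-/- CONT mice, with no overlap. Its difference was 1.85 ± 0.16 (3.61-fold, adjusted p = 4.32e-07), and its probe lay 11.5 Mb from that of Nr1i2. Tctex1d2, a dynein light chain, rose by 0.92 ± 0.12 (adjusted p = 0.000236), Abi3bp, a matrix protein, by 0.85 ± 0.16 (adjusted p = 0.0128) and Robo1, the slit receptor, by 1.05 ± 0.15 (adjusted p = 0.0012), the last with 1 of 3 probes called and another at 0.07.

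Among the falls, Pigx, of glycolipid anchor synthesis, was called by 2 of 2 probes, at -0.84 and -0.94. It ran from 10.53 to 10.93 around 10.64 in WT CONT mice and from 9.56 to 10.16 around 9.74 in Pxr-/- CONT mice. Senp5, a SUMO protease, fell by 0.83 ± 0.13 (adjusted p = 0.0033), Abhd10, a mitochondrial thioesterase, by 0.72 ± 0.10 (adjusted p = 0.000892), Crybg3 by 0.87 ± 0.16 (adjusted p = 0.0133) and Pla1a, a phospholipase A1 at 0.15 Mb from the Nr1i2 probe, by 0.69 ± 0.10 (adjusted p = 0.00084). Only 1 of 3 probes of Crybg3 was called, another lying at 0.14, and its call was lost when its probes were averaged. Gm15638 was not well above background on any Pxr-/- CONT array and was at least 1.72-fold lower there, and Tagln3, of the transgelin family, likewise at least 1.14-fold lower, its call being lost without Pxr-/- CONT replicate 4. A130072N09Rik, which has no RefSeq name, fell by 1.39 ± 0.25 (adjusted p = 0.00924) and was the only one of the 12 whose groups overlapped. Over all, 176 of 21056 genes (0.836%) were without overlap. The 12 were chosen by their call on these same arrays, which favours groups that are apart. Of the 58 called genes of other chromosomes, 35 were without overlap.

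By distance from the Nr1i2 probe, 1 of 77 genes was called within 5 Mb (1.3%), 7 of 100 between 5 and 10 Mb (7%), 2 of 148 between 10 and 20 Mb (1.35%) and 2 of 350 beyond 20 Mb (0.571%). With no filter on dim probes the same numbers of genes were called over more tested genes (0.735%, 4.4%, 0.813% and 0.317%). Between Pxr-/- PCN and WT PCN mice the shares called were 6.49%, 8%, 5.41% and 1.43%, so the bands within 20 Mb lay closer together there. In PCN mice 11 of the 12 genes had the same sign and 6 were called in the same direction, Ift57 at 1.31, Abi3bp at 0.73, Abhd10 at -0.79, Senp5 at -0.79, Pigx at -0.78 and Crybg3 at -0.87. They make up 50% of the 12 genes and 23.1% of the 26 genes of chromosome 16 called in PCN mice, which are 3.85% of those tested. Over all tested genes 58.4% had the same sign. For 11 of the 12 genes the interaction was not called, and the exception was Robo1, which moved from 1.05 to -0.56 (interaction adjusted p = 0.000241). Over all tested genes the interaction was called for only 1.17%, so a lack of calls among 12 genes says little. Without WT CONT replicate 4 the number of genes called higher on chromosome 16 was 7 in place of 4, and without Pxr-/- CONT replicates 3 and 6 together the number lower was 4 in place of 8. Loss of Pxr, sequence linked to the deleted locus and colony cannot be told apart by this design.

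**Figure D5:**
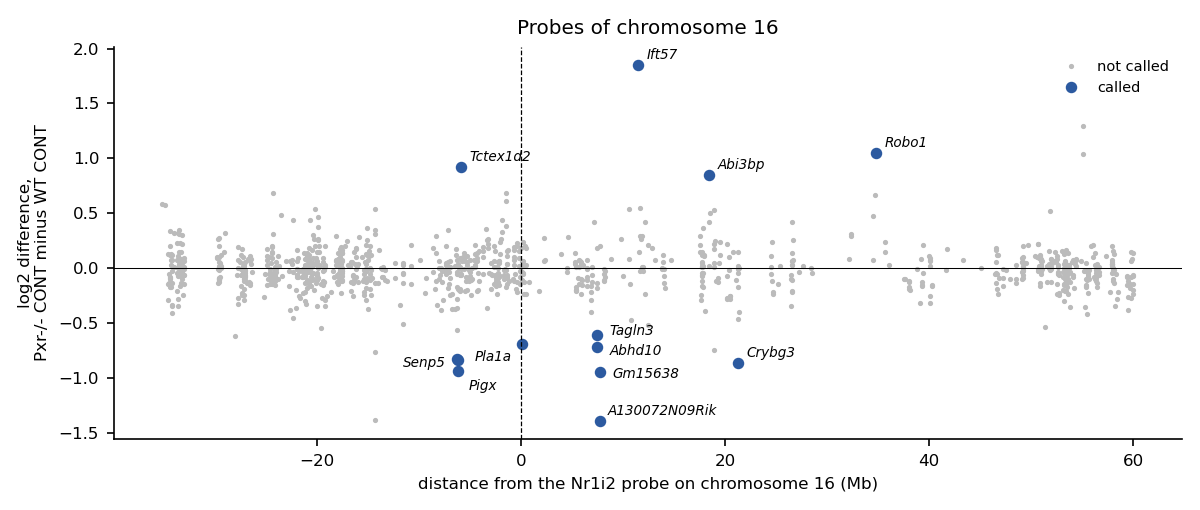
Log2 difference, Pxr-/- CONT minus WT CONT, of each tested probe on chromosome 16 against its distance in Mb from the Nr1i2 probe (dashed line); blue, called probes with their gene; grey, not called. Called probes gather 5 to 10 Mb to either side, where 7 of 100 genes were called, and Ift57 stands highest at 1.85.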

How the data were processed

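Liver RNA labelled with Cy3 was hybridised to 23 Agilent 1-colour mouse arrays. The deposited scanner files hold the median intensity of each spot as Agilent Feature Extraction 10.10.1.1 gave it. The authors also deposited a table of normalised log2 values, after their own filter, washing batch correction and CrossNorm. That normalisation was not rebuilt, and the table served as an alternative.

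Of 62976 spots, 59305 were no controls and stood for 56605 probes. Outlier spots (2225 in all) were set missing, spots of a probe were averaged, and log2 median intensities were quantile normalised. Testing was limited to probes that the scanner software marked as well above background in over 50% of the arrays in any 1 group. Probes set aside numbered 24518. limma 3.58.1 (R 4.3.3) fitted 4 groups and the washing batch over 23 arrays (18 residual degrees of freedom), with Benjamini-Hochberg adjustment over all tested probes. A gene was read from its brightest tested probe, or from the called probe of smallest p where only another was called. The number of arrays limits the precision. Scan time coincided with slide, and each of 8 slides had its own.

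Named were Nr1i2, the 12 largest rises and 8 largest falls outside chromosome 16, the 10 largest changes on chromosome 16, and members of gene lists. Members and lists were chosen with earlier results of these data known. Other called genes were named with their change. Alternatives covered background correction, normalisation, filters, batch, slide, replicate block, array weights, probe choice and leaving out each array. Probe positions are those of build mm9, and no annotation of that build was used here. Start regions came from RefSeq (GRCm38.p6) and were aligned with MAFFT 7.526. Gene names were found in RefSeq for 15869 of 21056 tested genes. Some genes are not reported here. The steps were tested on simulated data.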

Additional observations from a re-analysis of the deposited data

Results flagged for a closer look

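Among 104 groups of 6 mice examined, 8 held an array far from the others by Dixon's criterion, which chance meets in about 1 of 20 groups. Ift57 was highest in Pxr-/- CONT replicate 2, at 8.98 log2 units where the nearest array stood at 8.45. Ppp1r3g was lowest in Pxr-/- CONT replicate 4, at 7.21 log2 units where the nearest array stood at 9.32. Apol7b was highest in WT CONT replicate 2, at 9.40 log2 units where the nearest array stood at 8.86. Slco1a4 was highest in WT CONT replicate 2, at 10.54 log2 units where the nearest array stood at 9.004. Cyp3a11 was lowest in WT CONT replicate 6, at 12.83 log2 units where the nearest array stood at 13.60. Cyp4a14 was highest in WT CONT replicate 2, at 8.46 log2 units where the nearest array stood at 6.35. Elovl6 was lowest in WT CONT replicate 6, at 10.72 log2 units where the nearest array stood at 11.60. G6pc was lowest in Pxr-/- CONT replicate 2, at 12.54 log2 units where the nearest array stood at 13.78.

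The genotype difference changed with PCN treatment, by the interaction term of the limma fit, for 14 of the 30 genes named by rule. Over all tested genes this was so for 247 of 21056 (1.17%). The named genes were chosen by their CONT differences, which this term subtracts, so the choice favours such calls. Each value is the difference in PCN mice minus that in CONT mice on the log2 scale. For Robo1 it was -1.61 (adjusted p = 0.000241). For Pnpla5 it was -4.07 (adjusted p = 0.00516). For Cyp2c55 it was -5.72 (adjusted p = 1.89e-10). For Ppp1r3g it was -2.75 (adjusted p = 0.0244). For Adamtsl1 it was -1.64 (adjusted p = 3.06e-05). For Fam198a it was -1.98 (adjusted p = 0.000508). For Chrna4 it was -1.96 (adjusted p = 0.0304). For Meig1 it was -1.89 (adjusted p = 3.01e-05). For Cyp2c38 it was -1.35 (adjusted p = 0.00183). For Pnpla3 it was -2.01 (adjusted p = 0.00362). For S1pr5 it was 1.30 (adjusted p = 0.000773). For Prox1 it was 0.96 (adjusted p = 0.0404). For Fam25c it was 1.93 (adjusted p = 0.000265). For Enho it was 1.84 (adjusted p = 0.0231).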

How the results depend on the processing

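Each called gene was followed by the probe it was read from. On that probe no sign changed in any alternative run, all of which reuse arrays by which the genes were called. Of the 71 calls, 5 held in all of them and 21 in the 29 alternatives other than the fits of single washing batches. On other chromosomes the main fit called 48 genes higher and 10 lower. The deposited values gave 26 and 29, the vehicle arrays alone 31 and 4, washing batch 1 alone 10 and 0 (2214 probes had an unadjusted p under 0.05 there), and batch 2 alone 16 lower. Slide and scan time as an additive term gave 5 lower, no fold limit 26 lower, and leaving out Pxr-/- CONT replicates 3 and 6 together, chosen after seeing the data, 3 lower. On chromosome 16, against 4 higher and 8 lower, normexp gave 5 lower, batch 1 alone 1 and 1, batch 2 alone 2 and 3, no fold limit 8 higher, and the fit without Pxr-/- CONT replicates 3 and 6 gave 4 lower. Leaving out 1 array gave 36 (without Pxr-/- CONT replicate 5) to 60 higher and 6 to 15 lower genes on other chromosomes (60 and 15 without Pxr-/- CONT replicate 2), and 4 to 7 higher and 8 to 10 lower on chromosome 16. The share with the same sign in PCN mice then ran from 48.9% to 62.2% on other chromosomes and from 85.7% to 92.3% on chromosome 16. Single-batch fits and fits of fewer arrays have fewer residual degrees of freedom; the cause of the other changes was not tested.

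Values that changed sign all belong to genes that were not called. Cyp2b10 was -0.0423 in batch 1 alone, -0.0720 without Pxr-/- CONT replicates 3 and 6, and -0.14 (without WT CONT replicate 6) to 0.76 with 1 array left out. Ppara was 0.0062 with processed signals. Nr1i2 was 0.77 in batch 2 alone and -0.26 to 0.18 with 1 array left out, being 0.18 without Pxr-/- CONT replicate 2, 0.16 without WT CONT replicate 3, 0.05 without Pxr-/- CONT replicate 1 and 0.09 without WT CONT replicate 5. With array weights Thrsp passed at 1.64. The medians of the bile acid, transporter, lipid droplet, male liver and nuclear receptor lists changed sign with the scaling. With the replicate number as a block, 61 genes were higher and 13 lower on other chromosomes and 4 and 8 on chromosome 16. Deviations of CONT mice with the same number correlated at 0.37, 0.49, 0.23, 0.24, -0.04 and 0.06, and 4 of 6 correlated best with their own number, a hint from the data of something shared. The numbers were not taken as pairs because 2 of the 6 correlations were below 0.1. Under the block Prox1 (adjusted p = 0.0650) and Car1 (0.0731, limma) were not called. In the main fit Car1 was called at 0.70, a call lost in 18 of the 29 alternatives other than single batches. Signals near background limit what can be said of the dimmest genes.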
